A study of Homo sapiens with 4 samples.

Results

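The genes described here encode the SR proteins and the heterogeneous nuclear ribonucleoproteins (hnRNPs), measured as mRNA in human liver cancer cells with and without knockdown of CDCA8. The set was chosen with earlier results of these data known, and its members were then taken by symbol alone. They are every deposited row whose symbol is SRSF or SFRS followed by a number or begins with HNRNP. This gave 29 genes, 11 SR genes and 18 hnRNP genes, out of 18398 transcripts. A pair of related genes deposited under the older symbols HNRPDL and HNRPLL did not match and are counted with other hnRNP-type genes further on.

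Both families decide which exons of a transcript are kept. SR proteins carry an RNA recognition motif and a tail rich in arginine and serine, bind enhancer sequences within exons and help the U1 and U2 particles to define splice sites. The hnRNPs coat nascent transcripts and often act in the opposite sense, binding silencer sequences in exons or introns and hiding splice sites. Many members of both families also serve in mRNA export, stability or translation, and their genes are among the strongly expressed ones of dividing cells.

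RNA came from Huh1 and Huh7, both established hepatocellular carcinoma cell lines. The cells carried either NCsiRNA, the negative control, or an siRNA against CDCA8 (CDCA8siRNA), both at 15 nM, and were harvested at 48 h. CDCA8 encodes borealin, a subunit of the chromosomal passenger complex, which works at centromeres and the mitotic spindle. The siRNAs were delivered with a cationic lipid reagent in both arms, and no genetic change is named. Each line is a single established cell line, and transfection was transient. There was 1 library for each line and siRNA, 4 in all, so no spread between repeated transfections could be measured.

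Values are RPKM (reads scaled to transcript length and library depth), a unit worked out from the values because the labels do not state it. The depth, also worked out from the values with transcript lengths that may differ from those of the authors, is 12197606 to 13384836 reads. The level of the targeted gene matched the labels. CDCA8 stood at 24.1 RPKM in Huh1 with NCsiRNA and 5.86 RPKM with CDCA8siRNA, leaving 24.3%, and at 51.5 and 7.36 RPKM in Huh7, leaving 14.3%. Of 12 hepatocyte-lineage markers, 12 reached 1 RPKM in every library, with a summed level of 6469 and 5484 RPKM in Huh1 and 3535 and 2531 RPKM in Huh7 (NCsiRNA first). Of 6 fibroblast markers, 1 reached 1 RPKM in each Huh1 library and 4 in each Huh7 library, with sums of 12.1, 25.9, 284 and 377 RPKM in the same order. LUM made up most of the Huh1 sums, at 12.0 and 25.6 RPKM, while DCN was listed at 0 in both Huh1 libraries, COL3A1 in that with NCsiRNA, and 0 of the 6 in Huh7. Of 6 leukocyte markers 1 to 2 reached 1 RPKM, with sums of 15.1 to 27.9 RPKM, and of 3 endothelial markers found 0 did. These sums moved with line and siRNA, and their part in the results was not tested.

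The promoters of the 5 genes that stood at least 1.2-fold lower with CDCA8siRNA in Huh7 (results further on) are shown because these genes had the lowest changes of the 29 there. Each run is the 100 bases just before an annotated start, from RefSeq on GRCh38.p14, written 5′ to 3′ on the strand of the gene. Capitals mark 3 kinds of motif. The E-box is spelled CACGTG. The box spelled CCAAT reads as its reverse complement where the match is on the other strand. The TATA box is spelled TATAAA.
HNRNPA3, chr2:177212694-177212793, plus strand: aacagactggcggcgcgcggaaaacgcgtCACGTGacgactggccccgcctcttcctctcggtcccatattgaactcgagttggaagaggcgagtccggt
HNRNPAB, chr5:178204433-178204532, plus strand: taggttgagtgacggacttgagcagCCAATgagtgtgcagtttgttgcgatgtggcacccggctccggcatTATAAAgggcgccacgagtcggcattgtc
SRSF3, chr6:36594262-36594361, plus strand: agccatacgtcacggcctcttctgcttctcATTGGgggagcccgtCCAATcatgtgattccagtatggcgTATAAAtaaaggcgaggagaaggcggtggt
SRSF12, chr6:89118072-89118171, minus strand: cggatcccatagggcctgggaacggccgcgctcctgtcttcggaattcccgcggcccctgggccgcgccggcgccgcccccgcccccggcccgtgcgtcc
HNRNPF, upstream start, chr10:43408858-43408957, minus strand: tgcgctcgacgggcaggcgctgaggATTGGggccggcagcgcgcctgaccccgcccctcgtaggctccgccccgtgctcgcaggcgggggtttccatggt
HNRNPF, downstream start, chr10:43397278-43397377, minus strand: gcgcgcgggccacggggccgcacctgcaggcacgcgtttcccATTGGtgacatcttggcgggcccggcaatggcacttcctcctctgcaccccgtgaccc

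The HNRNPAB and SRSF3 runs hold a TATA box close to the start together with CCAAT boxes, the HNRNPA3 run holds an E-box, and the SRSF12 run holds none of the 3 letter strings. Over the full window of 250 bases before to 50 bases after each start, 27 of the 29 genes had an entry, with 39 windows among them, while HNRNPA1 and SRSF2 had no entry. On either strand the E-box lay in 5 of the 39 windows (12.8%, against 7.26% of 35116 windows of all genes). The CCAAT box lay in 17 (43.6% against 34.6%) and the TATA box in 6 (15.4% against 11.5%). These 3 strings share no bases with each other in the runs printed. A match describes the letters of the window and no binding was measured.

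**Figure D1:**
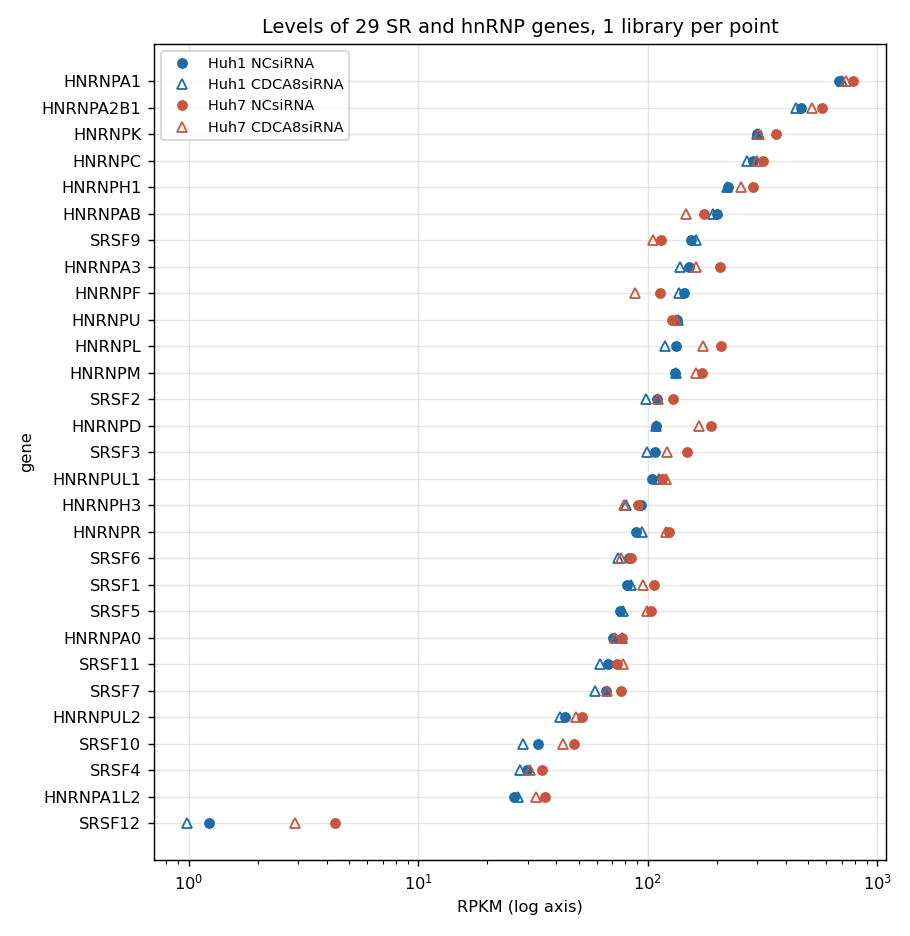
RPKM (log axis) of the 29 SR and hnRNP genes in each of the 4 libraries, with 1 point per library, circles for NCsiRNA and triangles for CDCA8siRNA, blue for Huh1 and red for Huh7. HNRNPA1 is highest in every library at 681 to 783 RPKM and SRSF12 lowest at 0.986 to 4.32 RPKM, and the 4 points of a gene lie close together compared with the range between genes.

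These were strongly expressed genes in both lines. All 29 passed the filter of 1 RPKM, and 13 stood at 100 RPKM or above in every library. In every library 22 of the 29 lay at or above the 90th percentile of the transcripts that reached 1 RPKM there. Summed over the 29 genes the level was 4198 RPKM in Huh1 with NCsiRNA, 4109 RPKM in Huh1 with CDCA8siRNA, 4933 RPKM in Huh7 with NCsiRNA and 4438 RPKM in Huh7 with CDCA8siRNA. These sums were 0.904%, 0.904%, 1.17% and 1.07% of all RPKM in the library. The sum was 2.13% lower with CDCA8siRNA in Huh1, where the share of all RPKM stayed at 0.904%, and 10.0% lower in Huh7. All RPKM of the library summed to 464167 and 454337 in Huh1 and to 422953 and 416518 in Huh7 (NCsiRNA first). The SR genes gave 808 and 774 RPKM in Huh1 and 922 and 829 RPKM in Huh7, and the hnRNP genes gave 3390 and 3334 RPKM in Huh1 and 4011 and 3608 RPKM in Huh7.

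The first question was how the 29 genes moved with CDCA8siRNA in each line. Changes are differences of log2(RPKM + 1), CDCA8siRNA minus NCsiRNA, and the added 1 makes the change of a low gene smaller than its ratio. With 1 library per condition they carry no replicate check and no p-value within a line. The only error that can be attached is the counting SD, the part of the spread that comes from sampling reads, computed from RefSeq-matched transcript lengths that may differ from those of the authors. It was 0.0105 to 0.0891 in Huh1 and 0.0104 to 0.0828 in Huh7 on the log2 scale, SRSF12 left aside, and covers counting error only.

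No member changed 2-fold in either line. In Huh1 0 of 29 reached 2-fold, where 0.494% of all 10940 genes did, and in Huh7 0 of 29, where 1.57% of 11565 genes did. At 1.2-fold, Huh1 had 0 lower and 0 higher among the 29, against 9.59% lower and 15.1% higher among all genes. Huh7 had 5 lower and 0 higher, against 14.9% lower and 21.5% higher. The 5 make up 17.2% of the members, a share near that background. The range of the members' changes, -0.22 to 0.14 in Huh1 and -0.44 to 0.08 in Huh7, was narrow against the SD of all genes, 0.26 and 0.35. That SD takes in genes down to 1 RPKM, which carry more counting error than most members. The spread of genes as strongly expressed as the members was not computed.

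The direction of these small changes was mostly downward in Huh7. In bulk RNA of this kind, fewer cells in a given state and less of a transcript per cell cannot be told apart. Lower by any amount with CDCA8siRNA were 26 of 29 members in Huh7 (89.7%), where 45.5% of all genes were lower, and 18 of 29 in Huh1 (62.1%), where 44.9% were. The median change of the members was -0.16 in Huh7 and -0.06 in Huh1, and that of all genes was 0.03 and 0.02. The Huh1 result depended on scaling. There the median of the members minus that of all genes was -0.0813 as deposited and -0.0334 with quantile normalization, and the count lower was 16 with quantile normalization and 21 with upper quartile and median-ratio scaling. Both lines were lower for 17 members (58.6%), where 30.5% of all genes fitted were. The change was lower in Huh7 than in Huh1 for 24 members (82.8%), against 51.0% of all genes. Beyond 2 counting SD lay 23 lower and 3 higher members in Huh7, and 12 lower and 4 higher in Huh1. The share of all genes beyond that limit was not computed, so these counts have no background. A gene with many reads passes it by a small change, as HNRNPA1 did in Huh1 with 0.05 (counting SD 0.0105). All members of one line share the same pair of libraries, so these counts are not counts of independent events.

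Strongly expressed genes as a class leaned the same way, though less. Among the 2280 genes of at least 25 RPKM in all libraries, a background added after the data had been seen, 56.8% were lower in Huh7 and 51.2% in Huh1. Of the 28 members in that class 25 were lower in Huh7 and 17 in Huh1. Their median change was -0.15 in Huh7 and -0.06 in Huh1, and that of the whole class was -0.03 and -0.0056. At 1.1-fold, also added later, 17 of the 29 members were lower in Huh7 and 7 in Huh1, and 0 were higher in either line. Of all genes 26.6% were lower and 35.3% higher by that much in Huh7, and 20.6% and 29.6% in Huh1.

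**Figure D2:**
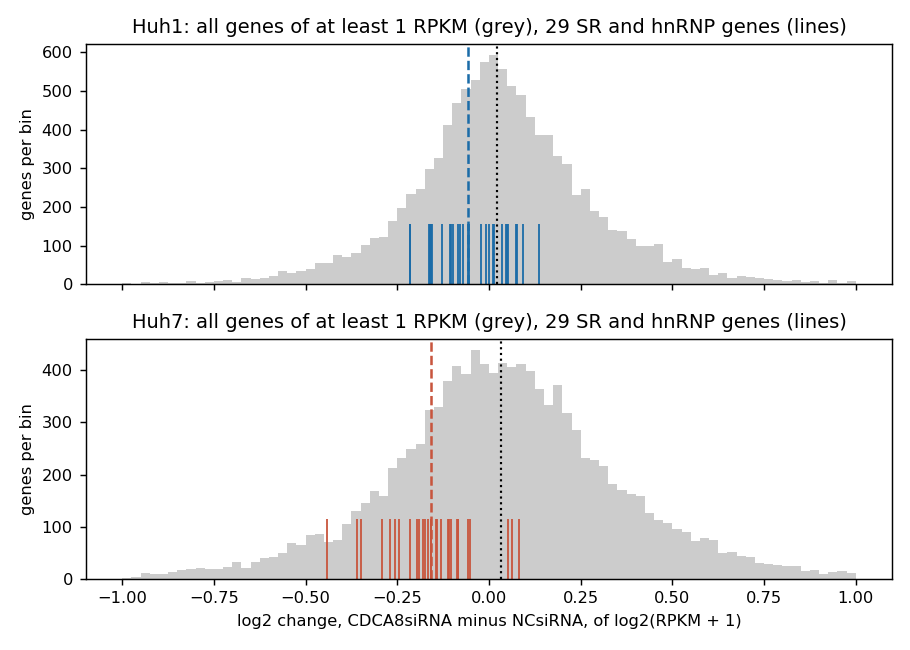
Number of genes per bin of log2 change with CDCA8siRNA (x axis, change of log2(RPKM + 1)) for all genes of at least 1 RPKM in grey, with a line for each of the 29 SR and hnRNP genes, Huh1 above and Huh7 below. The dashed line is the median of the 29 (-0.06 in Huh1, -0.16 in Huh7) and the dotted line that of all genes (0.02 and 0.03), and genes beyond 1 in either direction are not drawn.

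**Figure D3:**
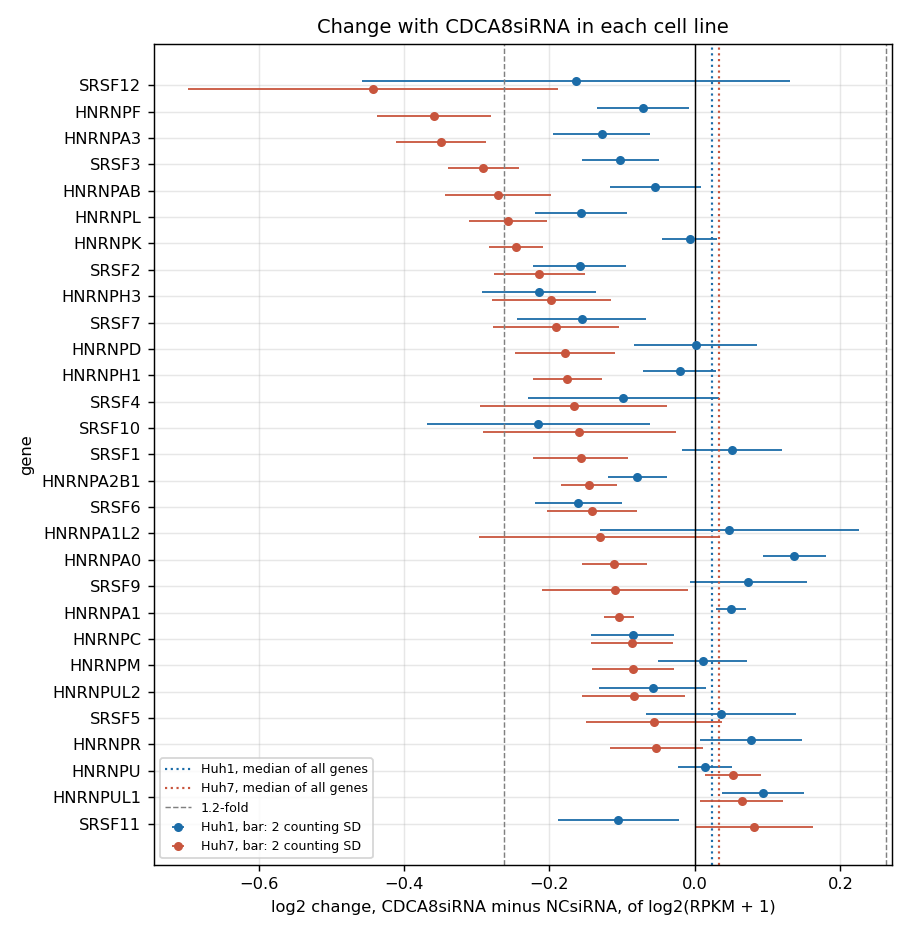
Change of log2(RPKM + 1) with CDCA8siRNA (x axis) for each gene in Huh1 (blue) and Huh7 (red), with bars of 2 counting SD on either side, the median of all genes as dotted lines and 1.2-fold as dashed lines. In Huh7 26 of 29 points lie below 0 and 5 lie below the 1.2-fold line, and in Huh1 18 lie below 0 and 0 pass that line.

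Over both lines no member passed the test. limma was fitted to log2(RPKM + 1) of all 4 libraries with the cell line as covariate. No condition was repeated, so its p sets the mean change of the lines against a spread borrowed mainly from all genes. Agreement between the lines enters only weakly. HNRNPC, with the same change of -0.09 in both lines, had a limma adjusted p of 0.494. Lower at an adjusted p under 0.05 were 0 of 29 members, against 4.21% of 10357 genes, and higher were 0 of 29, against 6.03%. At an unadjusted p under 0.05 there were 6 lower and 0 higher, against 10.5% and 15.5% of all genes. The smallest adjusted p, 0.110, belonged to HNRNPA3, with a fitted change of -0.24 (SE 0.0847) and a lower value in 2 of 2 lines. The 95% intervals of the fitted changes ran from -0.63 to 0.26 over the members, 23 of them held 0, and 28 lay within 1.5-fold either way. The median fitted change was -0.10, against 0.03 over all genes. Member counts stayed at 0 under each of the 8 other settings tried. Without the filter and without the covariate 0 genes of any kind were called, so those settings could give no other count.

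Among the classical SR proteins, SRSF1, the founding member that promotes use of nearby 5′ splice sites, stood at 81.2 RPKM with NCsiRNA and 84.2 RPKM with CDCA8siRNA in Huh1, and at 106 and 95.1 RPKM in Huh7. SRSF9, the member closest to it, stood at 154 and 162 RPKM in Huh1 and 114 and 106 RPKM in Huh7. Both were higher with CDCA8siRNA in Huh1 and lower in Huh7. SRSF1 differed by 0.05 (counting SD 0.0344) and -0.16 (counting SD 0.0327), and SRSF9 by 0.07 and -0.11. Of these 4 changes only those of Huh7 exceeded 2 counting SD.

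SRSF2, the marker protein of nuclear speckles, stood at 109 and 97.8 RPKM in Huh1 and 129 and 111 RPKM in Huh7. SRSF3, the smallest SR protein and also an mRNA export adaptor, stood at 107 and 99.6 RPKM in Huh1 and 148 and 121 RPKM in Huh7. SRSF7, an export adaptor with a zinc knuckle, stood at 65.8 and 59.0 RPKM in Huh1 and 76.3 and 66.7 RPKM in Huh7. All 3 were lower with CDCA8siRNA in both lines, each by more than 2 counting SD. SRSF3 was among those past 1.2-fold in Huh7, at -0.29 (counting SD 0.0244), and was -0.10 in Huh1. SRSF2 differed by -0.16 and -0.21, and SRSF7 by -0.16 and -0.19.

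SRSF4, SRSF5 and SRSF6 carry a pair of RNA-binding domains and long arginine and serine rich tails. SRSF4 stood at 29.6 and 27.6 RPKM in Huh1 and 34.7 and 30.8 RPKM in Huh7, lower in both lines (-0.10 and -0.17) but within 2 counting SD in Huh1. SRSF6 stood at 82.7 and 73.9 RPKM in Huh1 and 84.8 and 76.8 RPKM in Huh7, and its changes of -0.16 and -0.14 were close in size. SRSF5 stood at 76.0 and 77.9 RPKM in Huh1 and 103 and 99.3 RPKM in Huh7, and its changes of 0.04 and -0.06 were within 2 counting SD in both lines.

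SRSF10, which turns into a splicing repressor when it is dephosphorylated in mitosis or heat shock, stood at 33.3 and 28.6 RPKM in Huh1 and 47.8 and 42.7 RPKM in Huh7. Its change in Huh1, -0.22 (counting SD 0.0765), was with that of HNRNPH3 the most negative there, and it was -0.16 in Huh7. SRSF12, a relative of SRSF10 that counters other SR proteins, stood at 1.22 and 0.986 RPKM in Huh1 and 4.32 and 2.91 RPKM in Huh7. It was the only weakly expressed member, with 47 to 190 reads behind its values, and its change of -0.44 in Huh7 (counting SD 0.127) was the most negative of all. In Huh1 it was -0.16 (counting SD 0.147). SRSF11, a divergent SR protein, stood at 67.0 and 62.2 RPKM in Huh1 and 73.4 and 77.7 RPKM in Huh7, lower in Huh1 (-0.11, counting SD 0.0417) and higher in Huh7 (0.08, counting SD 0.0403). It was the only SR gene higher with CDCA8siRNA in Huh7. As a group the 11 SR genes were lower for 8 in Huh1 and 10 in Huh7, where 44.9% and 45.5% of all genes were lower. Their median changes were -0.11 and -0.16, and the fitted change passed the test for 0 of 11.

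The A/B type hnRNPs, whose best known member blocks splice sites by spreading along RNA, hold the most abundant transcripts here. HNRNPA1, that member, stood at 681 and 705 RPKM in Huh1 and 783 and 728 RPKM in Huh7. HNRNPA2B1, which also packages and transports RNA, stood at 467 and 442 RPKM in Huh1 and 574 and 519 RPKM in Huh7. HNRNPA1 was slightly higher with CDCA8siRNA in Huh1 (0.05) and lower in Huh7 (-0.10), but with quantile normalization it was 0.131 and 0.0252, higher in both, whereas HNRNPA2B1 was lower in both (-0.08 and -0.15). With counting SDs of 0.0104 to 0.0200, each of the 4 changes as deposited exceeded 2 counting SD.

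HNRNPA3, a close relative of HNRNPA1 and HNRNPA2B1, stood at 152 and 139 RPKM in Huh1 and 207 and 163 RPKM in Huh7. Its change was -0.13 in Huh1 (counting SD 0.0335) and -0.35 in Huh7 (counting SD 0.0312), the latter 21.6% less RPKM. HNRNPA0, from a gene without introns, stood at 70.3 and 77.4 RPKM in Huh1 and 77.5 and 71.7 RPKM in Huh7. It had the highest change of all members in Huh1, 0.14 (counting SD 0.0218), and -0.11 in Huh7 (counting SD 0.0226). HNRNPA1L2, a near-identical copy of HNRNPA1, stood at 26.2 and 27.1 RPKM in Huh1 and 35.8 and 32.6 RPKM in Huh7, with changes of 0.05 and -0.13 that were within 2 counting SD. Its level was 3.85% of that of HNRNPA1 in both Huh1 libraries and 4.58% and 4.48% in Huh7, and reads may be split between the copies, so its values are uncertain.

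HNRNPD, known as AUF1 and a regulator of the decay of AU-rich mRNAs, stood at 108 and 108 RPKM in Huh1 and 189 and 167 RPKM in Huh7. It was level in Huh1 and -0.18 in Huh7 (counting SD 0.0346). HNRNPAB, of the same D-type group, stood at 200.4 and 193 RPKM in Huh1 and 176 and 146 RPKM in Huh7. Its change was -0.05 in Huh1 (counting SD 0.0314), within 2 counting SD, and -0.27 in Huh7 (counting SD 0.0362), past 1.2-fold. The summed level of the pair was 14.4% lower in Huh7 and 2.38% lower in Huh1, where its share of all RPKM was 0.0665% and 0.0663%.

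The H/F group, which binds runs of guanines near splice sites and poly(A) sites, was lower in both lines for 3 of 3 genes. Of all genes fitted 30.5% were lower in both lines. HNRNPF stood at 144 and 137 RPKM in Huh1 and 113 and 87.8 RPKM in Huh7, with changes of -0.07 (counting SD 0.0317) and -0.36 (counting SD 0.0393). HNRNPH1 stood at 224 and 221 RPKM in Huh1 and 287 and 254 RPKM in Huh7, with changes of -0.02 and -0.18. Its change in Huh1 was within 2 counting SD (counting SD 0.0249) and was 0.0305 with quantile normalization. HNRNPH3 stood at 93.5 and 80.4 RPKM in Huh1 and 90.5 and 78.8 RPKM in Huh7, and was one of the few members whose change was as large in Huh1 (-0.21) as in Huh7 (-0.20). The summed level of the group was 5.05% lower in Huh1 and 14.2% lower in Huh7. The fitted changes of HNRNPF (-0.22, SE 0.0924, limma adjusted p = 0.177) and HNRNPH3 (-0.21, SE 0.0824, limma adjusted p = 0.15) were lower in 2 of 2 lines and did not pass the test.

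The remaining hnRNPs bind distinct sequences. HNRNPC, which forms tetramers on runs of uridines, stood at 288 and 272 RPKM in Huh1 and 317 and 299 RPKM in Huh7, with the same change of -0.09 in both lines. HNRNPK, which binds cytosine-rich stretches through KH domains, stood at 300.4 and 299 RPKM in Huh1 and 362 and 305 RPKM in Huh7, 0.496% lower in Huh1 and 15.7% lower in Huh7. HNRNPL, which binds CA repeats, stood at 133 and 119 RPKM in Huh1 and 208 and 174 RPKM in Huh7, with changes of -0.16 (counting SD 0.0316) and -0.26 (counting SD 0.0268), the latter just short of 1.2-fold. The 3 genes were thus lower in both lines, though HNRNPK hardly moved in Huh1.

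HNRNPM stood at 131 and 132 RPKM in Huh1 and 172 and 162 RPKM in Huh7, with changes of 0.01 and -0.09. HNRNPR, a relative of SYNCRIP, stood at 89.3 and 94.2 RPKM in Huh1 and 124 and 119.6 RPKM in Huh7, with changes of 0.08 and -0.05. Both were on opposite sides of 0 in the lines, though HNRNPM was -0.0222 and -0.0109 in Huh1 with upper quartile and median-ratio scaling. In all, 10 members had changes of opposite sign, 9 of them higher in Huh1 and lower in Huh7.

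The U-type hnRNPs are large proteins that bind RNA and DNA in the nuclear scaffold. HNRNPU, the scaffold attachment factor, stood at 134 and 135 RPKM in Huh1 and 128 and 133 RPKM in Huh7. HNRNPUL1 stood at 104 and 112 RPKM in Huh1 and 115 and 120.1 RPKM in Huh7. These were the only members higher with CDCA8siRNA in both lines, HNRNPU by 0.01 and 0.05 and HNRNPUL1 by 0.09 and 0.06, each within 1.1-fold. In Huh1 HNRNPU was -0.019 with upper quartile and -0.00756 with median-ratio scaling. HNRNPUL2 stood at 43.4 and 41.7 RPKM in Huh1 and 51.9 and 48.9 RPKM in Huh7 and was -0.06 and -0.08. The summed level of the 3 with CDCA8siRNA was 1.02 times that with NCsiRNA in each line, and whether the group differs from the other hnRNPs was not tested. Of the 18 hnRNP genes 10 were lower in Huh1 and 16 in Huh7, where 44.9% and 45.5% of all genes were lower. Their median changes were -0.01 and -0.14, and the fitted change passed the test for 0 of 18.

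The second question was how the lines themselves differed. In the same fit, with the siRNA as covariate, 16 of 29 members were higher in Huh7 at an adjusted p under 0.05 (55.2%), against 39.1% of all genes, and 3 were lower (10.3%), against 28.7%. Higher by any amount were 24 of 29 (82.8%), against 55.7%. The p here sets the mean difference under both siRNAs against a spread borrowed mainly from all genes. It does not ask whether the difference would hold in other cultures of the lines. The median difference was 0.22 for the members and 0.10 for all genes. The centre of all genes moved to -0.0274 with quantile normalization, where 16 members were higher (13 of them also called on the deposited values). It moved to 0.0077 and 0.0031 with upper quartile and median-ratio scaling, where 10 members were higher. Of the 10357 genes fitted, 3436 were higher with quantile normalization, and 3512 and 3560 with upper quartile and median-ratio scaling. With the latter scalings the share of the members was thus near that of all genes.

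The 5 largest differences in favour of Huh7 were those of SRSF12 (1.12, SE 0.147), HNRNPD (0.70, SE 0.0834), HNRNPL (0.59, SE 0.0788), SRSF10 (0.54, SE 0.0912) and HNRNPR (0.41, SE 0.0832). Their limma adjusted p-values were 0.00011, 5.4e-05, 0.00012, 0.00057 and 0.0018, and each was higher in Huh7 under 2 of 2 siRNAs. SRSF12 was the only member at least 2-fold apart with NCsiRNA (a log2 difference of 1.26), and with CDCA8siRNA 0 were (0.98 for SRSF12).

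The 5 lowest differences were those of SRSF9 (-0.53, SE 0.0840), HNRNPF (-0.49, SE 0.0924), HNRNPAB (-0.29, SE 0.0837), HNRNPU (-0.04) and HNRNPH3 (-0.04). The first 3 passed the test, with limma adjusted p-values of 0.00039, 0.0011 and 0.012, and the other two did not (0.63 and 0.71). For 10 members the line difference did not pass.

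**Figure D4:**
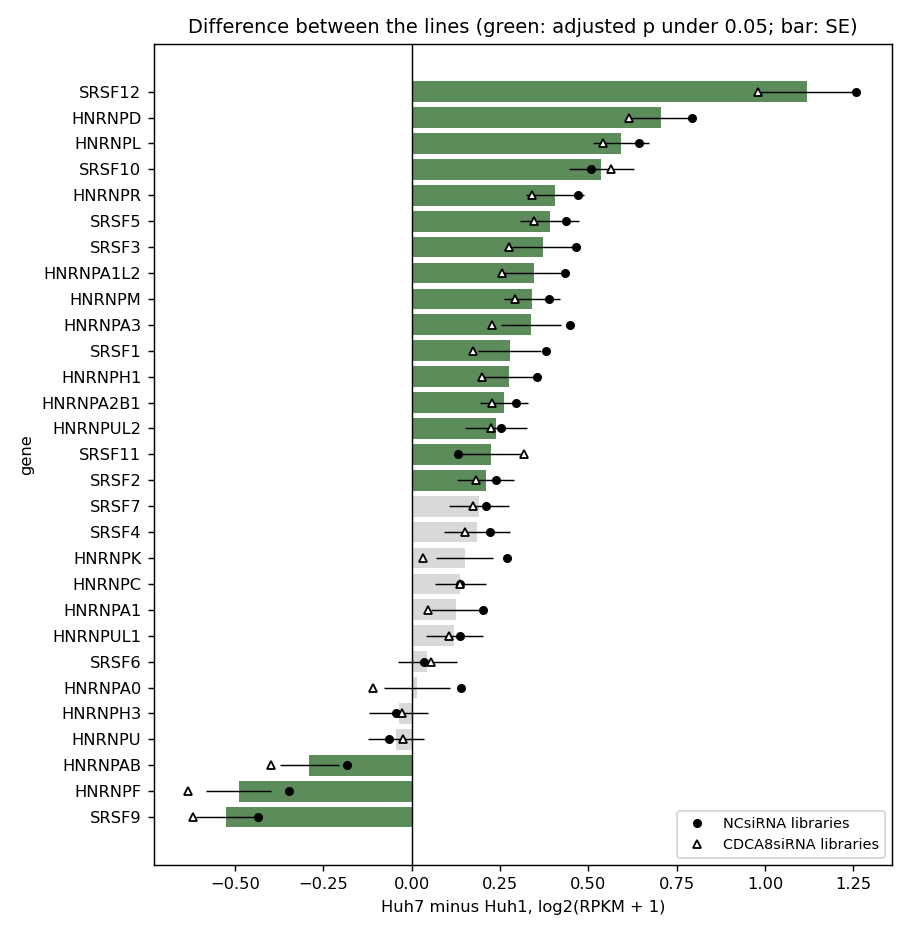
Difference Huh7 minus Huh1 of log2(RPKM + 1) (x axis) for each gene, with bars for the fitted difference, green where the limma adjusted p is under 0.05 and grey where it is not, error bars of 1 SE, circles for the NCsiRNA libraries and triangles for the CDCA8siRNA libraries. Of 29 genes 16 are green to the right and 3 green to the left, and only HNRNPA0 has its circle and triangle on opposite sides of 0.

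Close relatives could differ in opposite directions between the lines. These pairs were picked after their values had been seen. SRSF1 was higher in Huh7 (0.28, SE 0.0887, limma adjusted p = 0.019) where SRSF9 was lower. HNRNPH1 was higher (0.28, SE 0.0773, limma adjusted p = 0.010) where HNRNPF was lower, and HNRNPD was higher where HNRNPAB was lower. The SRSF1 and HNRNPH1 differences kept their sign but lost the call under upper quartile and median-ratio scaling (0.178 and 0.173 for SRSF1, 0.176 and 0.171 for HNRNPH1) and without the covariate. SRSF1 lost it also without the filter and without the trend. The HNRNPAB difference lost it without the covariate and without the filter.

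The line difference was smaller with CDCA8siRNA than with NCsiRNA, in the sense of Huh7 minus Huh1, for 24 of 29 members. These are the same values as the larger downward changes in Huh7, seen from the other side. The sign was the same under both siRNAs for 28 members, and the exception was HNRNPA0, at 0.14 with NCsiRNA and -0.11 with CDCA8siRNA.

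The wider splicing machinery was read in the same fit over 8 further lists. Over all genes fitted 4.21% were lower and 6.03% higher. The kinases, phosphatase subunits and import receptors that act on SR proteins had 1 lower and 0 higher of 14 genes. The gene was SRPK2, an SR protein kinase, at 19.7 and 13.2 RPKM in Huh1 and 20.7 and 11.3 RPKM in Huh7. It changed by -0.68 (SE 0.110, limma adjusted p = 0.0079) and was lower in 2 of 2 lines. The list's median change was 0.03 in Huh1 and 0.02 in Huh7. SR-like splicing proteins had 0 lower and 0 higher of 23, with medians of -0.03 and -0.04.

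Other hnRNP-type genes, HNRPDL and HNRPLL among them, had 2 lower and 0 higher of 29, with medians of 0.01 in Huh1 and -0.07 in Huh7. PCBP2, a poly(C)-binding protein, stood at 233 and 199 RPKM in Huh1 and 164 and 118 RPKM in Huh7. PCBP1, its relative from a gene without introns, stood at 218 and 171 RPKM in Huh1 and 215 and 184 RPKM in Huh7. PCBP2 changed by -0.35 (SE 0.0866, limma adjusted p = 0.035) and PCBP1 by -0.28 (SE 0.0775, limma adjusted p = 0.049), each lower in 2 of 2 lines. HNRPDL stood at 46.9 and 47.4 RPKM in Huh1 and 77.2 and 65.4 RPKM in Huh7. HNRPLL stood at 6.87 and 6.29 RPKM in Huh1 and 15.7 and 13.7 RPKM in Huh7. Neither passed the test.

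Tissue-type splicing regulators had 1 lower and 2 higher of 20, with medians of 0.03 and -0.03. Of the muscleblind relatives, regulators of developmental splicing, MBNL3 was lower and MBNL1 higher, each in 2 of 2 lines. MBNL3 stood at 17.7 and 13.2 RPKM in Huh1 and 37.1 and 12.5 RPKM in Huh7, with a fitted change of -0.95 (SE 0.205, limma adjusted p = 0.022). MBNL1 stood at 38.4 and 53.3 RPKM in Huh1 and 20.1 and 40.8 RPKM in Huh7, with a fitted change of 0.73 (SE 0.125, limma adjusted p = 0.0098). RBM24, known from muscle splicing, stood at 21.0 and 25.7 RPKM in Huh1 and 6.64 and 13.1 RPKM in Huh7 and rose by 0.58 (SE 0.142, limma adjusted p = 0.033), in 2 of 2 lines.

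Among the core particles the calls were few in number. U1 and Sm proteins had 2 lower and 0 higher of 10, with medians of -0.07 in Huh1 and -0.22 in Huh7. In this short list 20% were thus lower, against 4.21% of all genes fitted. SNRPD1, a subunit of the Sm ring, stood at 87.8 and 65.1 RPKM in Huh1 and 77.7 and 47.6 RPKM in Huh7 and changed by -0.56 (SE 0.0955, limma adjusted p = 0.0094). SNRPG, another, stood at 214 and 178 RPKM in Huh1 and 189.9 and 128 RPKM in Huh7 and changed by -0.41 (SE 0.0909, limma adjusted p = 0.023). The U4/U6.U5 particle had 1 lower and 0 higher of 23, with medians of 0.0074 and -0.08. The gene was NHP2L1, which binds U4 RNA, at 62.4 and 42.0 RPKM in Huh1 and 94.3 and 54.7 RPKM in Huh7, with a fitted change of -0.67 (SE 0.0929, limma adjusted p = 0.0042).

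U2 and U2AF proteins had 0 lower and 0 higher of 19, with medians of -0.04 and 0.03, and genes of the exon junction complex and nonsense-mediated decay had 0 and 0 of 15, with medians of 0.00049 and -0.05. Over all 10357 genes fitted 436 were lower and 625 higher, with medians of 0.02 in Huh1 and 0.03 in Huh7. The calls named in these lists were lost without the filter on low values and without the cell line covariate, 2 settings under which 0 genes were called. PCBP1, PCBP2, MBNL3, RBM24 and SNRPG also lost theirs without the trend, PCBP1 with a pseudocount of 0.1 RPKM and RBM24 with upper quartile scaling. The directions were kept in 8 of 8 other settings. The settings on the filter, the minimum, the trend and the covariate leave the fitted change as it is, so only the pseudocount and the scalings could turn a direction.

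**Figure D5:**
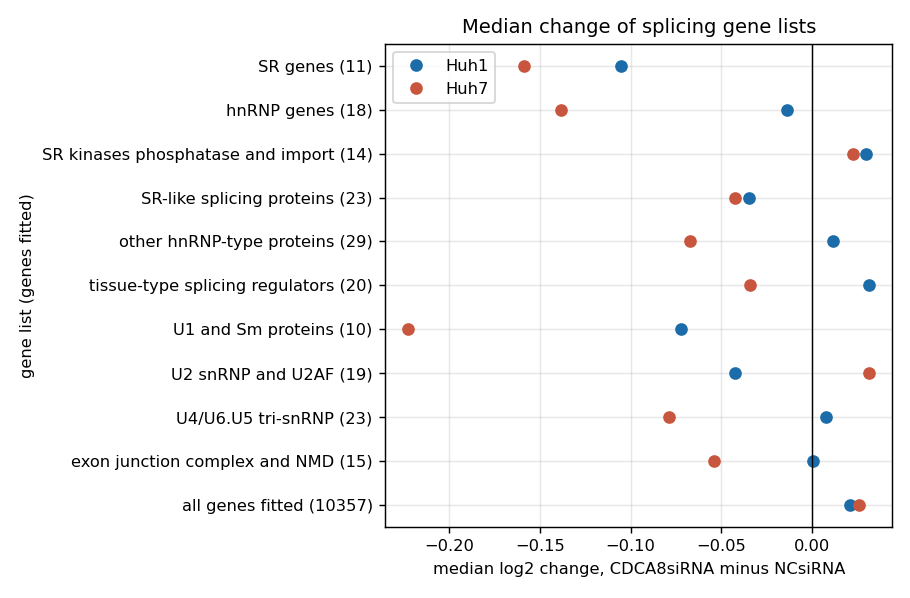
Median change of log2(RPKM + 1) with CDCA8siRNA (x axis) for the SR genes, the hnRNP genes, 8 other lists of splicing genes and all genes fitted, with a blue point for Huh1, a red point for Huh7 and the number of genes fitted in brackets. The SR genes lie at -0.11 and -0.16, the U1 and Sm proteins at -0.07 and -0.22, and all genes at 0.02 and 0.03.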

How the data were processed

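The data are 4 RNA-seq libraries, 1 from each combination of line (Huh1, Huh7) and siRNA (TRIzol extraction, TruSeq RNA kit per the labels). The submitters' processing notes name CASAVA 1.8.2, TopHat2 2.0.9 and hg19 without giving their roles. The counting tool, annotation and filters are not given in the sources used here. For each library the authors deposited 1 RPKM value per RefSeq transcript with its symbol. The labels name no unit. Low values times the length of the transcript are whole multiples of a constant, as RPKM from counted reads would be. The depth of 12197606 to 13384836 reads comes from the same step and sets the counting SD. Transcript lengths were taken from GENCODE release 29, by accession for 27 of the 29 genes and by symbol for 2, and may differ from those of the authors. Coordinates are given for RefSeq promoter windows on GRCh38.p14 only, and none were converted from hg19. There were 0 value columns left unused.

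Changes are differences of log2(RPKM + 1) computed from the deposited values, for genes that reached 1 RPKM in either library of a line. The study's own resampling test needs repeated libraries and was not rerun. The test used was limma 3.58.1 (R 4.3.3), with cell line and siRNA as terms and a mean-variance trend over all 4 libraries, for genes that reached 1 RPKM in both lines. There was 1 residual degree of freedom and a prior of 8.29, so p-values rest mainly on the spread borrowed from all genes. They were adjusted by the Benjamini-Hochberg method over all genes fitted. The fit was run on simulated data with known changes, as a check of the estimated changes only. The simulated spread was set in advance and not taken from repeated cultures, so the p-values were not checked. Python 3.11.15 with numpy 2.4.6 and pandas 2.3.3 was used for the rest.

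The 29 genes and all lists were chosen with earlier results of these data known. Every matching gene was described, with 5 genes at each end of the line difference and, from each other list, up to 3 genes in each direction with the largest change among those at an adjusted p under 0.05. The alternatives were a pseudocount of 0.1 RPKM, no filter, a minimum of 5 RPKM, upper quartile, median-ratio and quantile scaling, no trend and no covariate. The background of 25 RPKM, the 1.1-fold threshold and the promoter motifs were chosen after seeing the data.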

Additional observations from a re-analysis of the deposited data

Results flagged for a closer look

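In 3 genes the change with CDCA8siRNA was beyond 2 counting SD in each line but of opposite sign, and the difference between the lines was not tested. HNRNPA1 had a log2 change of 0.05 in Huh1 and -0.10 in Huh7. With quantile normalization these were 0.131 and 0.0252, both higher, while the other two genes kept opposite signs under each scaling tried. HNRNPA0 had 0.14 in Huh1 and -0.11 in Huh7. SRSF11 had -0.11 in Huh1 and 0.08 in Huh7, the latter only just past the limit at 2.03 counting SD. With upper quartile and median-ratio scaling SRSF11 was 0.0609 and 0.064 in Huh7, less than 2 times the counting SD of 0.0403. Each of these changes comes from 1 pair of libraries, and counting SD holds no variation between cultures.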

How the results depend on the processing

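The labels carry no replicate numbers, so no block by replicate could be fitted, and with 1 library per cell line and siRNA no replicate could be left out. The cell line, a term of the fit, pairs the CDCA8siRNA and NCsiRNA libraries. The count of SR and hnRNP genes that passed the knockdown test was 0 under every setting, whereas over all genes it was 267 to 718 lower and 443 to 770 higher, and 0 without the filter and without the covariate. With a pseudocount of 0.1 RPKM 1 of the 29 genes was at least 1.2-fold lower in Huh1, in place of 0. At a threshold of 1.1-fold 7 genes passed in Huh1 and 17 in Huh7, in place of 0 at 2-fold. With quantile normalization the median of the 29 minus that of all genes was -0.0334 in Huh1 and -0.128 in Huh7, against -0.0813 and -0.190 as deposited. Higher in Huh7 were 10 genes with upper quartile scaling, 10 with median-ratio scaling and 8 without the covariate, in place of 16. Over all 10357 genes fitted the same counts were 3512, 3560 and 3009, in place of 4045. The share of the 29 genes was thus near that of all genes in each of these settings. Why the counts fell in these settings was not tested. Some signs turned. For the knockdown fit these were those of HNRNPR (-0.0145 and -0.00728) and HNRNPA0 (-0.0136 and -0.0064) under upper quartile and median-ratio scaling, and HNRNPA1 (0.0782) and SRSF11 (0.0172) under quantile normalization. For the line difference they were those of SRSF6 (-0.0545 and -0.0597) and HNRNPA0 (-0.0839 and -0.0891) under upper quartile and median-ratio scaling. Of the other fitted differences 415 kept sign and call, 34 lost the call and 3 gained it. The settings on filter, minimum, trend and covariate could change a call but not a fitted sign. Of the changes within a line 310 moved by at most 1 counting SD and 36 by more. Of the 310, 58 and 56 belong to no filter and the minimum of 5 RPKM, which cannot move a change. The 36 were 19 with upper quartile, 12 with quantile and 5 with median-ratio scaling. Among the changes within a line 9 turned sign. In Huh1 those of HNRNPD (-0.0316 and -0.0202), HNRNPU (-0.019 and -0.00756) and HNRNPM (-0.0222 and -0.0109) did so under upper quartile and median-ratio scaling, and those of HNRNPD (-0.0277) and HNRNPH1 (0.0305) under quantile normalization. In Huh7 that of HNRNPA1 (0.0252, from -0.104) did so under quantile normalization. Depth limits SRSF12 most, with 47 to 190 reads.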
